A study of Mus musculus with 12 samples.

Results

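The enzymes that carry mevalonate to squalene epoxide were measured at the RNA level in mouse liver. The set was chosen by gene symbol and named 9 genes, of which 8 had a row among the 15846 genes of the table: Mvk, Pmvk, Mvd, Idi1, Fdps, Ggps1, Fdft1 and Sqle. The first gene of the set, Hmgcs1, was not analysed here. All 8 passed the filter on low counts. Membership rests on pathway position, with no threshold on a measured value.

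RNA sequencing was done on whole livers of 12 C57BL/6 mice aged 5 months, 3 in each of 4 groups. The groups were Shp Hep-/- mice, in which Shp is deleted in hepatocytes (KO), on the diet that the labels call HFCF, KO mice on chow, WT mice on HFCF and WT mice on chow. The labels do not spell out HFCF, nor do they give the Cre driver of the knockout, the time on diet or the sex. Each library is labelled as a separate liver.

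Mevalonate is made from acetyl units by the entry steps of the route. Kinases and a decarboxylase turn it into isopentenyl diphosphate, and an isomerase and prenyl transferases join these units into farnesyl diphosphate. From there one branch makes geranylgeranyl groups that anchor proteins in membranes, and the other makes squalene, which squalene epoxidase oxidises on the way to lanosterol and cholesterol. In liver the genes of this route are classical targets of SREBP2, a transcription factor that is held inactive when the endoplasmic reticulum is rich in sterol.

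Library totals lay between 13967116 and 18324134 counts, and 14736 genes were tested. Nr0b2, which encodes Shp, stood at 0.21 to 0.509 CPM in KO HFCF livers and 0.552 to 1.01 CPM in KO chow livers. It stood at 47.6 to 53.4 CPM in WT HFCF livers and 22.4 to 49.3 CPM in WT chow livers, so the genotype labels and the targeted transcript matched in each library. CPM are counts scaled to a common library size with TMM factors. Levels are compared between genes only in FPKM, which also divides by gene length. No library repeated another of its group, since chi-square over degrees of freedom lay between 11.21 and 34.42 for each such pair, where 1 is counting noise. WT HFCF replicate 1 stood apart from replicates 2 and 3 of its group (32.17 and 34.42). Unless stated otherwise, ± is the SD over 3 livers for CPM and FPKM and the standard error for log2 fold changes, and adjusted p is edgeR's quasi-likelihood p with Benjamini-Hochberg adjustment over all tested genes.

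The first question was what the HFCF diet changed along the route in each genotype. On HFCF, 6 of the 8 enzymes fell and none rose in KO livers, and 6 fell and none rose in WT livers. In whole liver RNA, fewer cells of a type and less RNA per cell cannot be told apart. In KO the genes that fell were Pmvk, Mvd, Idi1, Fdps, Fdft1 and Sqle. In WT they were Mvk, Pmvk, Mvd, Idi1, Fdps and Sqle. The median log2 fold change of the 8 was -1.30 in KO and -1.13 in WT, against -0.00 over all tested genes in each. Among all tested genes, 1.18% were called lower with the diet in KO and 2.65% in either direction. In WT 5.9% were called lower and 7.76% higher. The 5 genes called lower in both genotypes were Pmvk, Mvd, Idi1, Fdps and Sqle, and 0.543% of all tested genes were called lower in both. Without WT HFCF replicate 1, the same 6 genes were called in WT, with values from -0.71 for Pmvk to -3.63 for Sqle, while the count over all genes dropped to 1303 from 2013. Ggps1 had the value nearest 0 in each genotype.

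**Figure D1:**
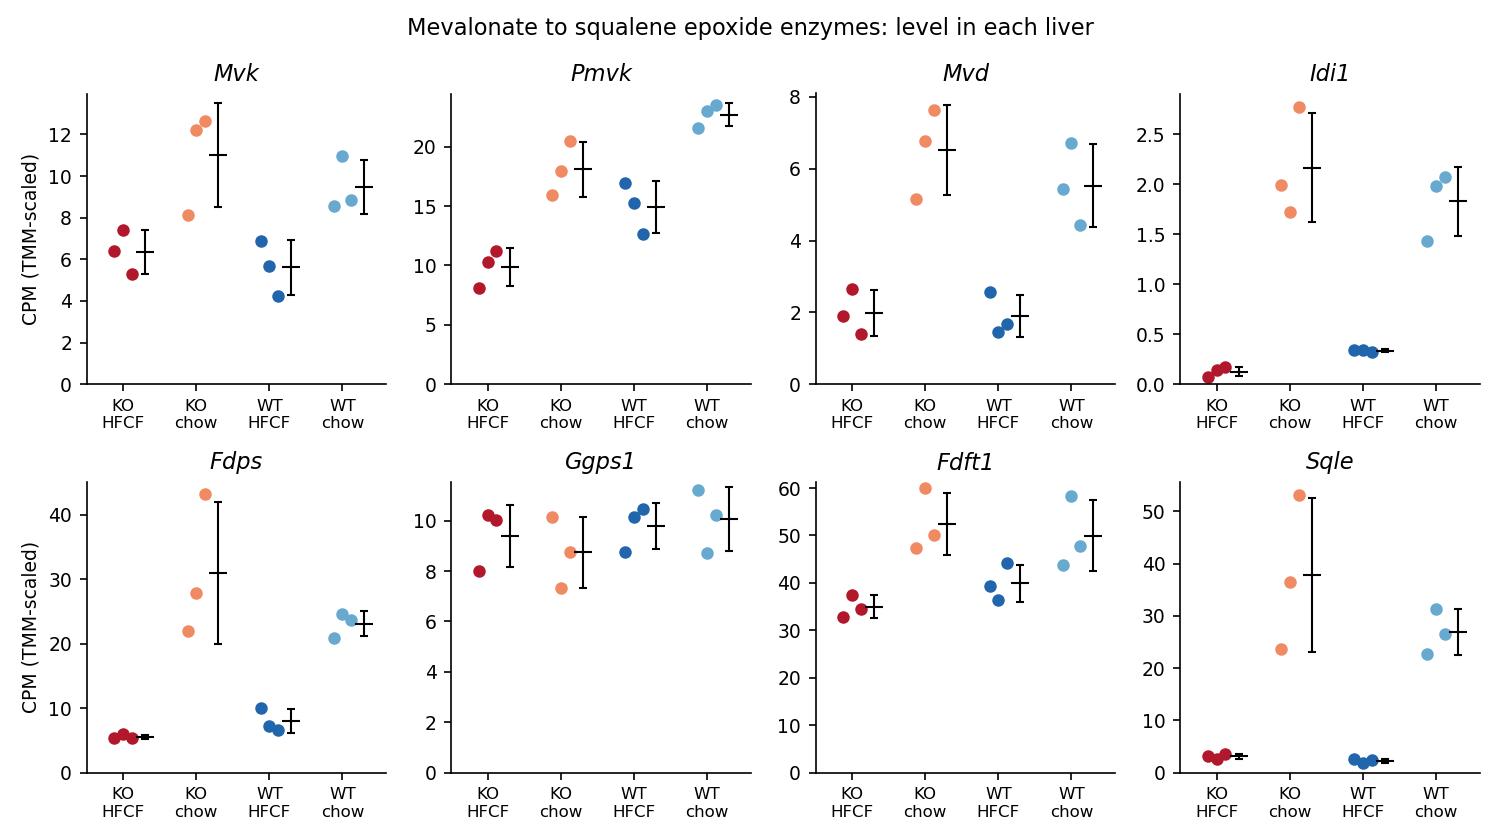
Level of each enzyme gene in every liver, in CPM on a linear axis that starts at 0, with genes in pathway order. Points are single livers, and the black mark and bar beside them are the mean and SD of 3; Sqle stood at 3.13 CPM in KO HFCF and 37.8 CPM in KO chow livers, while the groups of Ggps1 overlapped.

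The route begins with the kinases and the decarboxylase of mevalonate. Mevalonate kinase, encoded by Mvk (ENSMUSG00000041939, mm10 chromosome 5, 114444269 to 114460591, plus strand), makes phosphomevalonate. It stood at 6.40, 7.41 and 5.29 CPM in KO HFCF livers, against 8.14, 12.2 and 12.7 CPM in KO chow livers. In WT it stood at 6.88, 5.70 and 4.25 CPM on HFCF, against 8.58, 10.97 and 8.85 CPM on chow. The HFCF livers lay below the chow livers of the same genotype without overlap, with the smallest gap between KO HFCF replicate 2 and KO chow replicate 1. Such a separation, lower on HFCF, was found for 7 of the 8 members in KO and 6 in WT. Among all tested genes it was found for 11.3% in KO and 15.3% in WT. The log2 fold change was -0.79 ± 0.20 in KO, just short of the threshold (edgeR adjusted p = 0.0558), and -0.75 ± 0.21 in WT (edgeR adjusted p = 0.0302). Neither side of that threshold was firm. Mvk was called in KO by DESeq2 (adjusted p = 0.0120), in a fit of the KO livers alone (0.0481) and without KO chow replicate 1 (0.0341), WT HFCF replicate 1 (0.0317) or WT HFCF replicate 3 (0.0385). In WT the call was lost without WT HFCF replicate 2 (0.0701) or 3 (0.0827), or without WT chow replicate 1 (0.0538), 2 (0.114) or 3 (0.0616).

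Phosphomevalonate kinase, encoded by Pmvk (ENSMUSG00000027952, chromosome 3, 89459118 to 89469013, plus strand), adds the second phosphate. Its level was 8.07, 10.3 and 11.2 CPM in KO HFCF livers, against 15.9, 17.9 and 20.5 CPM in KO chow livers. In WT livers it was 16.9, 15.2 and 12.6 CPM on HFCF, against 21.6, 23.0 and 23.5 CPM on chow. Every HFCF liver was below every chow liver of its genotype, and the level in KO HFCF livers was below that of all other groups. Pmvk fell by 0.87 ± 0.14 on the log2 scale in KO (edgeR adjusted p = 0.00440) and by 0.60 ± 0.13 in WT (edgeR adjusted p = 0.00984).

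Diphosphomevalonate decarboxylase, encoded by Mvd (ENSMUSG00000006517, chromosome 8, 122433596 to 122443422, minus strand), makes isopentenyl diphosphate. Mvd stood at 1.89, 2.66 and 1.41 CPM in KO HFCF livers, against 5.15, 6.76 and 7.63 CPM in KO chow livers. WT livers had 2.56, 1.46 and 1.68 CPM on HFCF, against 5.44, 6.73 and 4.43 CPM on chow. The diets did not overlap in either genotype, and the 2 genotypes held much the same range on each diet. The fall was 3.30-fold in KO (log2 fold change -1.72 ± 0.26, edgeR adjusted p = 0.00320) and 2.87-fold in WT (-1.52 ± 0.27, edgeR adjusted p = 0.00242). Counts behind the HFCF values were low, at 21 to 45 in each liver.

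Isopentenyl diphosphate isomerase, encoded by Idi1 (ENSMUSG00000058258, chromosome 13, 8885606 to 8892395, plus strand), makes the allylic starter unit of chain growth. It had the lowest level of the set and the largest fitted fall in KO. Idi1 had 1, 2 and 3 counts in KO HFCF livers, against 36, 25 and 44 counts in KO chow livers. WT livers had 6, 5 and 5 counts on HFCF, against 20, 28 and 30 counts on chow. The HFCF livers thus lay far below the chow livers in both genotypes, and on HFCF the 3 KO livers lay below the 3 WT livers. The log2 fold change with the diet was -3.97 ± 0.37 in KO (edgeR adjusted p = 6.85e-05) and -2.41 ± 0.32 in WT (edgeR adjusted p = 0.000398). With so few reads the size of the fall is loosely set. Pooled over the livers, 6 counts in KO HFCF against 105 in KO chow gave a level 16.6-fold lower, with an exact 95% interval of 7.36 to 46.2. In WT, 16 counts on HFCF against 78 on chow gave a level 5.44-fold lower, with an interval of 3.15 to 9.98. These intervals cover counting error only.

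Farnesyl diphosphate synthase, encoded by Fdps (ENSMUSG00000059743, chromosome 3, 89093592 to 89101959, minus strand), builds the chain that both branches use. It stood at 5.45, 5.94 and 5.34 CPM in KO HFCF livers, against 21.9, 27.9 and 43.2 CPM in KO chow livers. In WT it stood at 10.1, 7.30 and 6.64 CPM on HFCF, against 20.9, 24.6 and 23.7 CPM on chow. KO HFCF livers were the lowest of the 4 groups and the most alike, with an SD of 0.320 CPM, while KO chow livers were spread by an SD of 10.96 CPM. Fdps fell by 2.47 ± 0.23 on the log2 scale in KO (5.55-fold, edgeR adjusted p = 6.08e-05) and by 1.52 ± 0.22 in WT (2.87-fold, edgeR adjusted p = 0.000646).

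At the branch, Ggps1 (ENSMUSG00000021302, chromosome 13, 14052370 to 14063401, minus strand) encodes geranylgeranyl diphosphate synthase, which lengthens the farnesyl chain for protein prenylation. Ggps1 stood at 7.99, 10.2 and 10.01 CPM in KO HFCF livers, against 10.1, 7.32 and 8.76 CPM in KO chow livers. WT livers had 8.76, 10.2 and 10.4 CPM on HFCF, against 11.2, 8.71 and 10.2 CPM on chow. All 4 groups overlapped. The log2 fold change was 0.10 ± 0.15 in KO (edgeR adjusted p = 0.773) and -0.04 ± 0.15 in WT (edgeR adjusted p = 0.886). The 95% intervals ran from -0.21 to 0.42 in KO and from -0.36 to 0.28 in WT.

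The sterol branch starts with Fdft1 (ENSMUSG00000021273, chromosome 14, 63145153 to 63177793, minus strand), which encodes squalene synthase. Fdft1 stood at 32.8, 37.6 and 34.5 CPM in KO HFCF livers, against 47.3, 59.9 and 50.1 CPM in KO chow livers. WT livers had 39.3, 36.4 and 44.1 CPM on HFCF, against 43.8, 58.4 and 47.7 CPM on chow. The diets did not overlap in KO and overlapped in WT, where WT HFCF replicate 3 was above WT chow replicate 1. The fall in KO was small (log2 fold change -0.58 ± 0.12, edgeR adjusted p = 0.0180), and it was not called without KO chow replicate 2 (0.0715), KO HFCF replicate 1 (0.0988) or KO HFCF replicate 3 (0.0513). In WT the value was -0.32 ± 0.12 (edgeR adjusted p = 0.0861).

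Sqle (ENSMUSG00000022351, chromosome 15, 59315077 to 59331192, plus strand) encodes squalene epoxidase, the enzyme that adds oxygen to squalene and a rate-limiting step of the sterol branch. It stood at 3.27, 2.59 and 3.54 CPM in KO HFCF livers, against 23.8, 36.6 and 53.1 CPM in KO chow livers. In WT livers it stood at 2.56, 1.88 and 2.45 CPM on HFCF, against 22.7, 31.4 and 26.6 CPM on chow. The lowest chow liver, a WT one at 22.7 CPM, was far above the highest HFCF liver, a KO one at 3.54 CPM. The fold was much the same in the 2 genotypes, at 11.9-fold lower in KO (log2 fold change -3.58 ± 0.27, edgeR adjusted p = 7.35e-06) and 11.6-fold lower in WT (-3.54 ± 0.28, edgeR adjusted p = 7.80e-06).

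**Figure D2:**
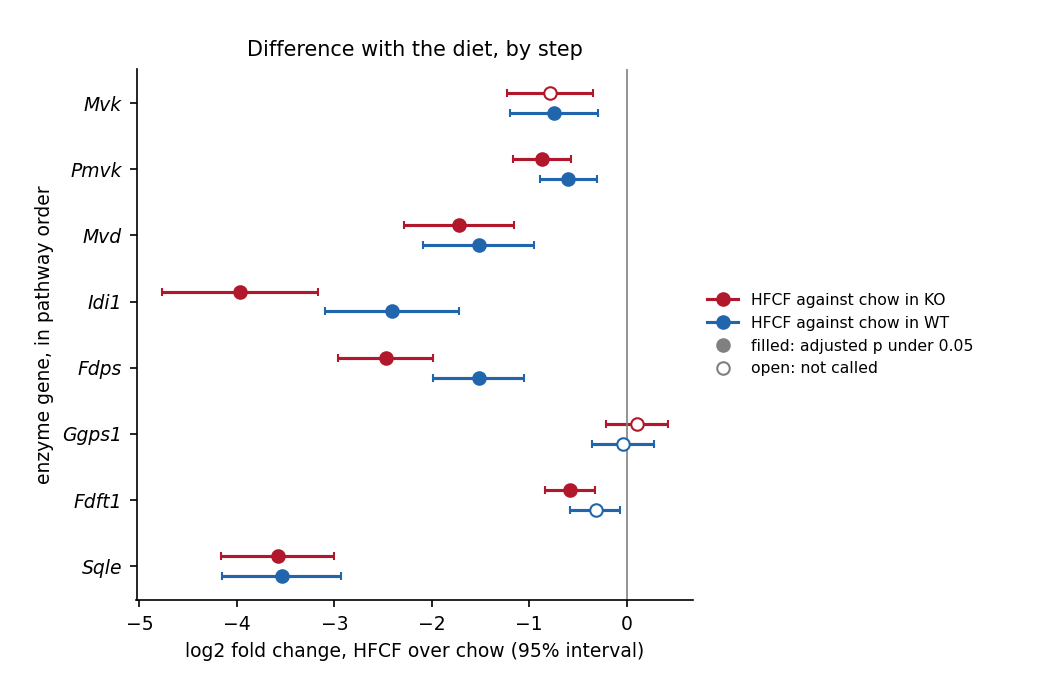
Log2 fold change of each enzyme gene with the diet, HFCF over chow, in KO (red) and WT (blue), with 95% intervals from edgeR's fit. Filled points passed an adjusted p of 0.05; Sqle lay at -3.58 in KO and -3.54 in WT, Idi1 at -3.97 and -2.41, and the intervals of Ggps1 included 0.

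Per unit of gene length, the order of the enzymes also differed between diets. On HFCF the highest member was Fdft1, at 11.9 ± 1.01 FPKM in KO and 14.2 ± 1.65 FPKM in WT, followed by Pmvk at 6.33 ± 1.08 and 9.98 ± 1.36 FPKM. Sqle ranked 7 of 8 on HFCF, at 0.549 ± 0.0803 FPKM in KO and 0.420 ± 0.0718 FPKM in WT. On chow Fdps was first, at 25.8 ± 9.76 FPKM in KO and 18.5 ± 1.38 FPKM in WT, and the ranges of Fdps and Fdft1 overlapped in both genotypes. Sqle ranked 4 on chow, at 6.998 ± 2.87 FPKM in KO and 4.79 ± 0.729 FPKM in WT, with a range that overlapped that of the next gene down. Ggps1 ranked 4 on HFCF (3.83 ± 0.546 FPKM in KO and 4.15 ± 0.406 FPKM in WT), whereas on chow it ranked 7 in KO (3.74 ± 0.630 FPKM) and 5 in WT (4.16 ± 0.566 FPKM). The range of Ggps1 overlapped that of Fdps above it in KO HFCF, that of Mvd in KO chow and those of Sqle and Mvk in WT chow, so its rank is not fixed by these livers. Idi1 was the lowest throughout, at 0.0432 ± 0.0170 FPKM in KO HFCF, 0.775 ± 0.216 in KO chow, 0.119 ± 0.00269 in WT HFCF and 0.630 ± 0.115 in WT chow.

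Neighbouring steps moved by unequal amounts. This was tested on the log2 ratio of neighbours within each liver, where library scaling cancels but for the 0.5 CPM added to each level, by an exact two-sided permutation of the diet labels within genotype over all 12 livers. The test covered 7 ratios, and its smallest possible p is 0.005. It passed for 4 of the 7 after Benjamini-Hochberg adjustment, and each of those 4 had a p at that minimum and an adjusted p of 0.00875. The ratio of Sqle to Fdft1 was lower on HFCF by 2.87 on average, with a difference of -2.76 in KO and -2.98 in WT. It ran from -3.62 to -3.11 in KO HFCF livers and from -0.98 to 0.08 in KO chow livers, and from -3.95 to -3.70 in WT HFCF livers and from -0.94 to -0.83 in WT chow livers. Each HFCF liver was thus far below each chow liver.

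At the branch the ratio of Ggps1 to Fdps was higher on HFCF by 1.94, with 2.42 in KO and 1.46 in WT. The ratio was 0.51 to 0.85 in KO HFCF livers, against -2.24 to -1.08 in KO chow livers. It was -0.19 to 0.62 in WT HFCF livers, against -1.45 to -0.87 in WT chow livers. These ratios do not take gene length into account, so their sign says nothing of which gene was more abundant. The ratio of Fdft1 to Fdps was higher on HFCF by 1.46, with 1.74 in KO and 1.18 in WT. That of Mvd to Pmvk was lower by 0.70, with -0.66 in KO and -0.74 in WT. In these 4 pairs the diets did not overlap in either genotype.

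The other 3 ratios did not pass. Pmvk to Mvk differed by 0.00 between the diets (exact permutation adjusted p = 0.995), Idi1 to Mvd by -0.34 (exact permutation adjusted p = 0.182) and Fdps to Idi1 by -0.14 (exact permutation adjusted p = 0.362). Idi1 is near the added 0.5 CPM, which compresses its ratios. With 5 CPM added instead, a value above the levels of Idi1, Mvd and Sqle on HFCF, 3 of the 7 calls changed. The Mvd to Pmvk difference was -0.10 and not called (exact permutation adjusted p = 0.300). Fdps to Idi1 was then called at -1.004 (exact permutation adjusted p = 0.00875), and Idi1 to Mvd was called with the sign turned, at 0.25 (exact permutation adjusted p = 0.0280). Sqle to Fdft1, Ggps1 to Fdps and Fdft1 to Fdps kept their calls (exact permutation adjusted p = 0.00875 for each). Their differences were smaller, at -1.83, 1.44 and 1.02. Calls on the ratios with Idi1 and Mvd thus depend on the value added, and so does the size of the other called differences.

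**Figure D3:**
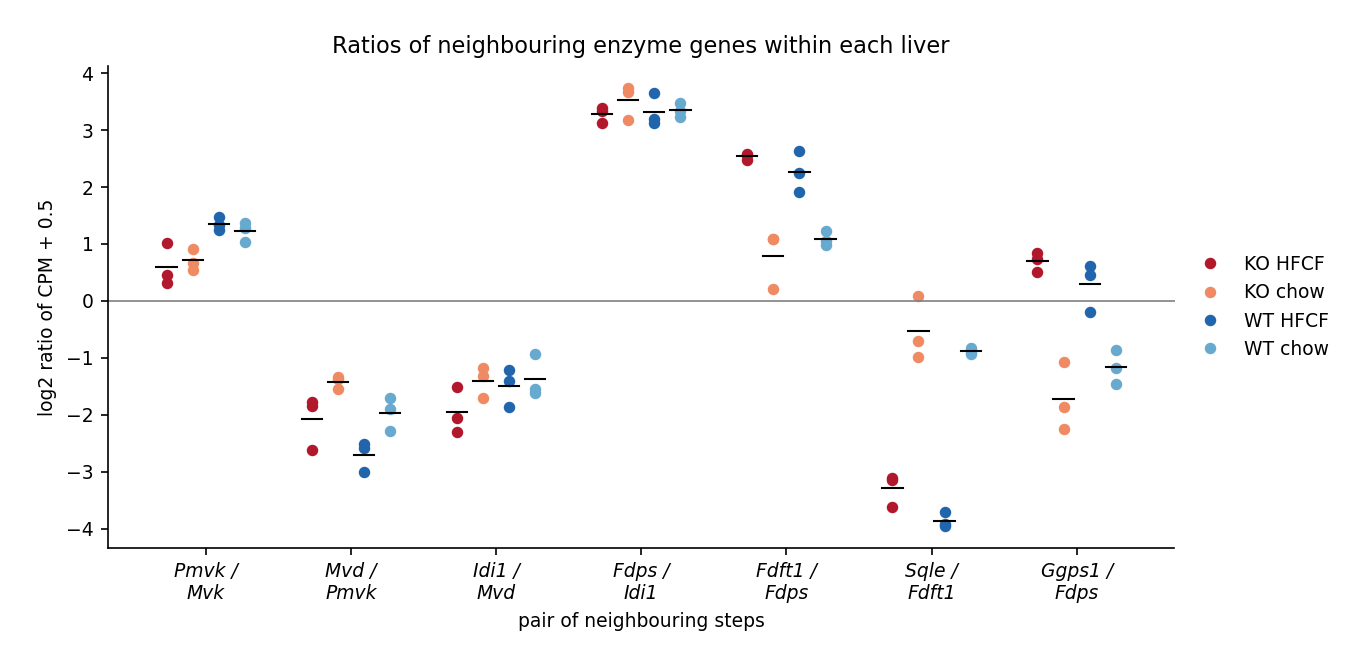
Log2 ratio of the CPM + 0.5 of neighbouring enzyme genes within each liver, by group, with each point 1 liver and each black line a group mean. For Sqle to Fdft1 the HFCF livers lie between -3.95 and -3.11 and the chow livers between -0.98 and 0.08; for Ggps1 to Fdps the HFCF livers lie above the chow livers of the same genotype.

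Promoters are shown for Mvd, called lower in both genotypes, for Mvk, called lower in WT, and for Ggps1, which was not called, because these genes share a promoter element while their values differed. The sequences are those of RefSeq on GRCm38.p6, 5′ to 3′ on the strand of the gene and ending at the base before the start that RefSeq gives. Capitals mark CCAAT boxes (CCAAT, or ATTGG for the other strand), which bind the factor NF-Y, and GC boxes (GGGCGG, or CCGCCC for the other strand), which bind SP1. Mvd is shown at chr8:122443423-122443672 (minus strand), Ggps1 at chr13:14063489-14063738 (minus strand) and Mvk at chr5:114444061-114444268 (plus strand), the whole stretch between Mvk and its neighbour Mmab. The RefSeq start of Ggps1, at 14063488, lies upstream of the gene end printed above from the deposited table, and those of Mvk and Mvd match it.
Mvd: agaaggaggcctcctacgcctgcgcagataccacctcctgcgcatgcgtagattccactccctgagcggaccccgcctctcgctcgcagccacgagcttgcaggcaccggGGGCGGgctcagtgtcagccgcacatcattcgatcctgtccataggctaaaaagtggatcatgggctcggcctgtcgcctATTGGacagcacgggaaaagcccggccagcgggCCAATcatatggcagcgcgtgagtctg
Mvk: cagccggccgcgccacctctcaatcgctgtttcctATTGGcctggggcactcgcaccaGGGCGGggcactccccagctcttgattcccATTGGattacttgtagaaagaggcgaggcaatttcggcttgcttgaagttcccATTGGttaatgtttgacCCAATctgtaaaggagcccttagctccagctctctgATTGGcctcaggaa
Ggps1: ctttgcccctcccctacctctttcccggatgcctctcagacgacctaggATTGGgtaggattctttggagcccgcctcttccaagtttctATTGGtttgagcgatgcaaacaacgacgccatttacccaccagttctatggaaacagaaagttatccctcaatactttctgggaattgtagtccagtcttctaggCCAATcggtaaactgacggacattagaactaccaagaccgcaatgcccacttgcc

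The 208 bases shown before Mvk held 5 CCAAT boxes and 1 GC box, and the full 250 bases before it held 5 CCAAT boxes and 2 GC boxes. Over 250 bases Mvd had 2 CCAAT boxes and 1 GC box, and Ggps1 had 3 CCAAT boxes and no GC box. The 250 bases before Idi1 held 2 CCAAT boxes and 1 GC box. Pmvk has 2 starts in RefSeq, at 89454541 and 89459571, neither of which is the start in the deposited table. The first lies upstream of the gene as printed above, and the 250 bases before the second lie inside it. There was 1 CCAAT box before the first, none before the second and no GC box before either. Neither window is thus the stretch before the start in the deposited table. Of 32817 RefSeq promoters searched over the same 250 bases on both strands, 33.8% held at least 1 CCAAT box, 10.1% at least 2, 2.79% at least 3 and 0.213% at least 5, and 32.7% held a GC box. A sterol regulatory element core, TCACNCCAC on either strand, was in 1.05% of all promoters and in none of the 6 windows of these 5 genes. Only that exact pattern within 250 bases was searched, so its absence does not show that a gene lacks such an element. The letters are a description of these windows. Windows for Fdps, Fdft1 and Sqle were not used here.

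Several members share ground with other genes, and the strand setting of the counting was not given in the sources used here. Mvk and Mmab, which encodes an enzyme of cobalamin metabolism, start 208 bases apart and run in opposite directions. Mmab stood at 10.02 ± 0.741 CPM in KO HFCF and 13.4 ± 2.85 CPM in KO chow livers (log2 fold change -0.42 ± 0.14, edgeR adjusted p = 0.125). In WT it stood at 11.4 ± 1.02 CPM on HFCF and 13.4 ± 0.776 CPM on chow (-0.23 ± 0.14, edgeR adjusted p = 0.302). So the gene on the other side of that stretch was not called in either genotype, and a difference between it and Mvk was not tested.

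The 3′ end of Fdft1 overlaps that of Ctsb, the cathepsin B gene, by 774 bases on the opposite strand. Ctsb was far more abundant, at 592 ± 52.4 CPM in KO HFCF, 529 ± 9.92 CPM in KO chow, 520 ± 60.9 CPM in WT HFCF and 432 ± 11.4 CPM in WT chow livers. If strand was not used in counting, reads from that stretch cannot be told apart, and their part in the small change of Fdft1 was not tested. Ggps1 and Arid4b overlap by 257 bases on opposite strands. Arid4b averaged 41.0 ± 3.99 CPM in KO HFCF and 49.9 ± 3.31 CPM in KO chow, and 40.7 ± 4.12 CPM in WT HFCF and 54.7 ± 1.62 CPM in WT chow livers, where it fell with the diet (-0.43 ± 0.09, edgeR adjusted p = 0.00770). Mvd lies opposite the long model Gm20388, which was not called with the diet in KO (-0.31 ± 0.12, edgeR adjusted p = 0.181) or in WT (-0.10 ± 0.12, edgeR adjusted p = 0.617). Fdps shares 7512 bases with the model Gm43738 on the same strand, where a strand setting cannot tell reads apart. Idi1 overlaps the model Gm48574 by 323 bases on the opposite strand. Neither Gm43738 nor Gm48574 had a row among the measured genes.

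The rest of the sterol pathway was read from lists of its genes, by counts. Of 11 genes from lanosterol to cholesterol, 8 fell and none rose in KO, and 8 fell and none rose in WT, with medians of -0.91 and -1.05. Cyp51, the lanosterol demethylase, stood at -2.63 ± 0.14 in KO and -2.57 ± 0.14 in WT (edgeR adjusted p = 4.45e-07 and 4.25e-07). Nsdhl, a dehydrogenase of the demethylation steps that follow, stood at -2.07 ± 0.19 in KO and -1.29 ± 0.19 in WT (edgeR adjusted p = 6.08e-05 and 0.000646). Sc5d and Ebp, which encode late enzymes of sterol ring chemistry, were not called in either genotype.

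Of 11 genes of entry and regulation, 5 fell and none rose in KO, and 5 fell and none rose in WT, with medians of -0.46 and -0.70. They included Srebf2, the gene of SREBP2, Insig1, its sterol-dependent retention factor, and Stard4, a sterol carrier. Insig1 stood at -1.32 ± 0.15 in KO (edgeR adjusted p = 0.000351) and at -0.89 ± 0.15 in WT (edgeR adjusted p = 0.00177). Srebf2 stood at -0.80 ± 0.10 in KO (edgeR adjusted p = 0.000834) and at -0.90 ± 0.10 in WT (edgeR adjusted p = 0.000147). Stard4 stood at -0.95 ± 0.16 in KO (edgeR adjusted p = 0.00572) and at -0.79 ± 0.16 in WT (edgeR adjusted p = 0.00532).

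A further list held genes that use isoprenoids for prenylation, dolichol or ubiquinone. Of 14 measured, none was called in KO, against 2.65% of all tested genes, and in WT 2 fell and none rose, against 13.7% of all tested genes called in either direction. The medians were -0.05 and 0.06, and these counts are near the background. At an unadjusted p under 0.05, edgeR had 4 of them in KO: Fnta, Icmt, Coq2 and Rce1. The share of all tested genes under that unadjusted p is not reported here, for this count or for those of the members below. The 2 that fell in WT were Rabggtb, a subunit of the transferase that prenylates Rab proteins, at -0.40 ± 0.11 (edgeR adjusted p = 0.0247) and Rce1, a protease of prenylated proteins, at -0.51 ± 0.14 (edgeR adjusted p = 0.0255).

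**Figure D4:**
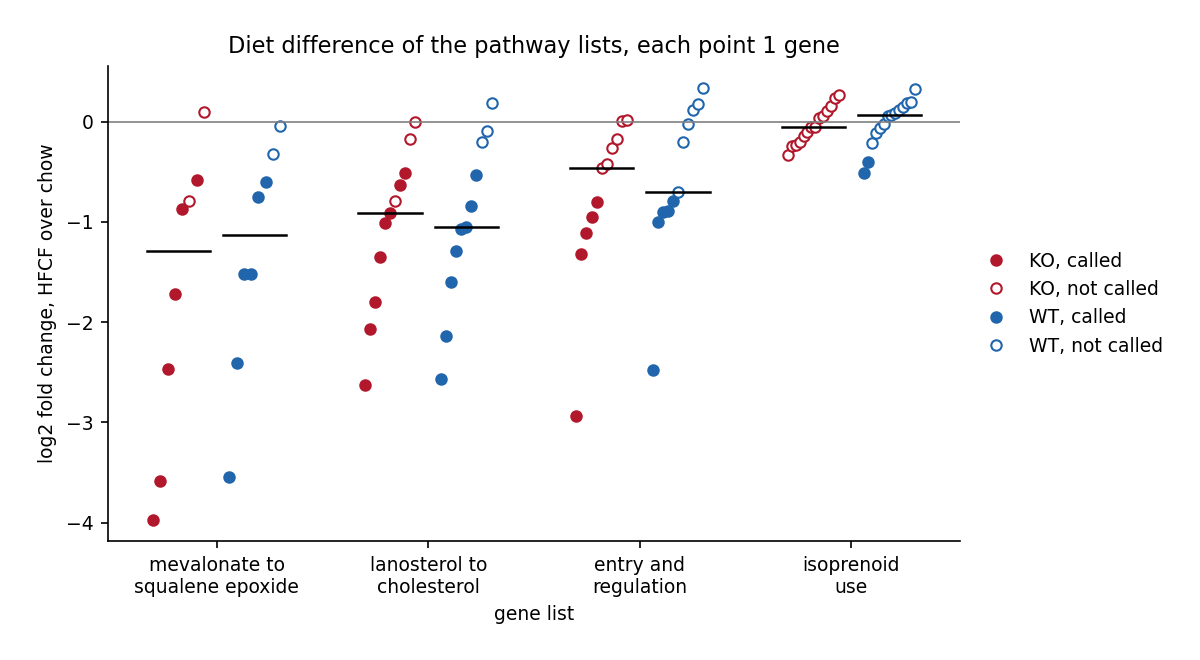
Log2 fold change with the diet, HFCF over chow, for genes of 4 lists, with KO in red on the left and WT in blue on the right of each pair. Filled points passed an adjusted p of 0.05 and black lines are medians; the mevalonate to squalene epoxide genes have medians of -1.30 in KO and -1.13 in WT, and the isoprenoid-use genes -0.05 and 0.06.

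The genes most like the set were ranked by their profile over the 12 livers. Each tested gene was standardised over the livers, and its root mean square distance to the average member was taken, where 0 is an identical profile and the median over all tested genes was 1.413. Idi1 (0.186) and Fdps (0.213) were the nearest of all genes, and Sqle (0.324) and Mvd (0.330) ranked 11 and 12. Pmvk ranked 33, Fdft1 43, Mvk 73 and Ggps1 8213 of 14736, the last at a distance of 1.467, so Ggps1 was no closer to the set than a typical gene. The members are part of the average they are measured against, so their own ranks are a description.

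Among the 10 nearest genes outside the set were 4 of the list from lanosterol to cholesterol. They were Cyp51 (0.278), Nsdhl (0.302), Sc4mol (0.304), which is the older symbol of the sterol oxidase gene Msmo1, and Lss (0.344), the lanosterol synthase that takes up the product of Sqle. The nearest of all was Rdh11 (0.250), a retinol dehydrogenase gene, at 12.2 ± 0.524 CPM in KO HFCF and 30.6 ± 2.20 CPM in KO chow livers, and at 15.3 ± 0.962 CPM in WT HFCF and 36.2 ± 4.74 CPM in WT chow livers. Its log2 fold change was -1.33 in KO (edgeR adjusted p = 9.35e-06) and -1.24 in WT (edgeR adjusted p = 8.46e-06). Also among them were Obfc2a (0.279), 0610007P14Rik (0.309), the older symbol of Erg28, a scaffold of sterol enzymes in yeast, and Marveld3 (0.348).

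The livers of a group did not share 1 order over the members. The summed level of the 8 was 65.9, 76.8 and 71.4 CPM in KO HFCF livers, against 134, 170 and 199 CPM in KO chow livers. In WT it was 87.4, 78.5 and 82.5 CPM on HFCF, against 136, 166 and 147 CPM on chow. The 3 KO HFCF sums were thus all below the 3 WT HFCF sums, while the chow sums of the 2 genotypes overlapped. A sum of CPM gives most weight to the genes of highest CPM, such as Fdft1 at 34.9 CPM in KO HFCF and 39.9 CPM in WT HFCF livers. Mvk, Mvd and Sqle had higher means in KO HFCF than in WT HFCF livers, and the other members had lower ones. A difference in the sums was not tested. In KO chow, replicate 3 was highest for 6 of the 8 genes and replicate 1 lowest for 6.

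The second question was whether loss of Shp in hepatocytes changed these enzymes. Pmvk was lower in KO than in WT on HFCF, and it was the only member called in a comparison of genotypes. On HFCF 1 of 8 was called, against 8.52% of all tested genes called lower and 19.1% called in either direction. That count is near the background. On chow edgeR, DESeq2 and limma voom called none of the 8, against 15.5% of all tested genes by edgeR, 5.82% lower and 9.72% higher, and 2 had an unadjusted edgeR p under 0.05. These comparisons use the same livers as those of the diet.

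Pmvk had a mean of 9.85 ± 1.61 CPM in KO HFCF and 14.9 ± 2.17 CPM in WT HFCF livers, without overlap (log2 fold change -0.60 ± 0.14, edgeR adjusted p = 0.00926). On chow it had 18.1 ± 2.30 CPM in KO and 22.7 ± 0.990 CPM in WT, again without overlap (-0.33 ± 0.13, edgeR adjusted p = 0.109). Groups that did not overlap, with KO lower, were found for 15.7% of all tested genes on HFCF and 16.8% on chow. The call on HFCF was kept in all 19 other fits, with an adjusted p of 0.00135 to 0.0362, and was -0.49 without WT HFCF replicate 1 (edgeR adjusted p = 0.0357). Relative to Mvk, the enzyme before it, Pmvk had a log2 ratio of 0.31 to 1.01 in the 6 KO livers and of 1.03 to 1.47 in the 6 WT livers. That contrast was chosen after its values were seen and was not tested.

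Idi1 and Fdps were lower in KO on HFCF without overlap and were not called. Idi1 averaged 0.127 ± 0.0493 CPM in KO HFCF and 0.337 ± 0.0133 CPM in WT HFCF livers (-1.31 ± 0.52, edgeR adjusted p = 0.128). Its pooled counts of 6 and 16 gave a level 2.57-fold lower in KO, with an exact 95% interval of 0.957 to 8.03. Fdps averaged 5.58 ± 0.320 CPM in KO HFCF and 8.001 ± 1.82 CPM in WT HFCF (-0.53 ± 0.24, edgeR adjusted p = 0.155). Fdps was called without KO chow replicate 3 (edgeR adjusted p = 0.0416), a library outside the contrast that enters the shared spread, and stood at -0.32 without WT HFCF replicate 1. Sqle went the other way, with all 3 KO HFCF livers above the 3 WT HFCF livers, at 3.13 ± 0.493 and 2.29 ± 0.365 CPM (0.45 ± 0.35, edgeR adjusted p = 0.420). Groups that did not overlap, with KO higher, were found for 18.5% of all tested genes on HFCF.

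On chow, Sqle stood at 37.8 ± 14.7 CPM in KO and 26.9 ± 4.35 CPM in WT livers (0.49 ± 0.22, edgeR adjusted p = 0.146), and Fdps at 30.99 ± 10.96 CPM in KO and 23.1 ± 1.96 CPM in WT (0.42 ± 0.20, edgeR adjusted p = 0.169). For both genes the groups overlapped, and KO chow replicate 1 was the lowest KO chow liver. Without that library Sqle and Fdps were called higher in KO, at 0.74 (edgeR adjusted p = 0.0153) and 0.62 (0.0428). For each gene that was the 1 call among 19 other fits. KO chow replicate 3 was the highest liver for both, at 53.1 and 43.2 CPM. Over the fits that left out 1 library, the value went as low as 0.16 for Sqle and 0.10 for Fdps.

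For Ggps1 the intervals of the genotype difference ran from -0.37 to 0.27 on HFCF and from -0.52 to 0.12 on chow. Mvk, Mvd and Fdft1 overlapped between genotypes on each diet, with log2 fold changes of 0.17, 0.03 and -0.19 on HFCF and of 0.21, 0.23 and 0.07 on chow. In the regulation list 2 of 11 were called lower in KO on HFCF, Acat2 at -0.92 and Insig1 at -0.84, and 2 higher, Srebf2 at 0.41 and Mbtps2 at 0.30. Acat2 encodes the cytosolic thiolase ahead of the route. Of the 11 genes of the list from lanosterol to cholesterol, which includes lanosterol synthase, 2 were called lower in KO and 1 higher on HFCF. Among all tested genes, 8.52% were called lower in KO on HFCF and 10.6% higher.

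**Figure D5:**
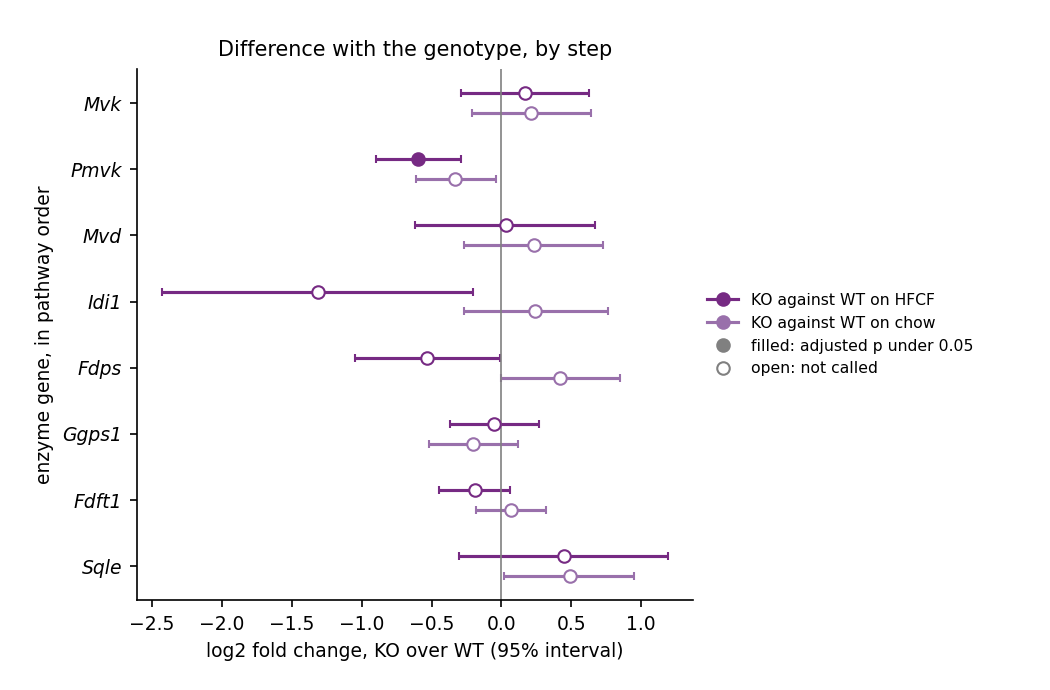
Log2 fold change of each enzyme gene with the genotype, KO over WT, on HFCF (dark purple) and on chow (light purple), with 95% intervals from edgeR's fit. The filled point, Pmvk on HFCF at -0.60, passed an adjusted p of 0.05, and the interval of Idi1 on HFCF is the widest, from -2.43 to -0.20.

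Whether the diet acted differently in the 2 genotypes was asked of the interaction, the diet difference in KO minus that in WT. None of the 8 members was called by edgeR, DESeq2 or limma voom, against 0.794% of all tested genes by edgeR, and 2 had an unadjusted edgeR p under 0.05. Those were Fdps at -0.95 ± 0.31 (edgeR adjusted p = 0.198, 95% interval -1.63 to -0.28) and Idi1 at -1.56 ± 0.57 (edgeR adjusted p = 0.253, interval -2.79 to -0.33). Sqle stood at -0.04 ± 0.42 with an interval of -0.95 to 0.87, and Mvk at -0.04 ± 0.29 with an interval of -0.67 to 0.59. Mvk and Fdft1 were each called with the diet in 1 genotype, and their interactions were -0.04 and -0.26 (edgeR adjusted p = 0.975 and 0.547). The interval of Fdft1 ran from -0.62 to 0.10. Their calls thus differ between genotypes without a called difference in the diet's effect, and equal effects are not shown.

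Markers of liver cell types were summed per liver. The summed level of 7 hepatocyte markers was 25800 to 27190 CPM in KO HFCF and 24140 to 30100 CPM in KO chow livers, and 21120 to 26280 CPM in WT HFCF and 30460 to 31210 CPM in WT chow livers. In WT the HFCF sums were below the chow sums without overlap, and in KO they overlapped. For 8 Kupffer cell and macrophage markers the sums were 721.8 to 759.9 CPM in KO HFCF and 510.9 to 517.7 CPM in KO chow, and 309.8 to 624.1 CPM in WT HFCF and 324 to 372.3 CPM in WT chow livers. For 6 B and plasma cell markers they were 75.8 to 83.4 CPM in KO HFCF, 122 to 170 CPM in KO chow, 5.15 to 9.15 CPM in WT HFCF and 5.10 to 8.85 CPM in WT chow livers. Sums of 8 stellate cell markers were 711.2 to 888.6 CPM in KO HFCF, 779.1 to 791 CPM in KO chow, 744.4 to 867.9 CPM in WT HFCF and 578.8 to 675.9 CPM in WT chow livers. For 5 cholangiocyte markers they were 49.2 to 71.3 CPM in KO HFCF, 57.7 to 95.3 CPM in KO chow, 50.3 to 94.3 CPM in WT HFCF and 30.2 to 45.01 CPM in WT chow livers, so WT HFCF lay above WT chow without overlap. Those of 8 endothelial markers lay between 490.5 and 546.2 CPM over all livers, and the groups overlapped. Of 5 adipocyte markers listed, only 1 had a row, Cfd, so its values are those of a single gene. Cfd stood at 0.490 to 1.01 CPM in KO HFCF and 0.996 to 1.89 CPM in KO chow livers. In WT it stood at 104 to 217 CPM on HFCF and 1.42 to 3.94 CPM on chow. No marker with a row was at 0 in a whole group. The part of these shifts in the enzyme levels was not tested.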

How the data were processed

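Total RNA of flash-frozen livers was depleted of ribosomal RNA with a stranded kit, per the labels' protocols. The authors deposited raw read counts per Ensembl gene, per the file headers, on mm10, per the submitters' processing notes. They also deposited FPKM, per the file headers, which equaled each count over gene length and a library total within 0.1% and served only to compare levels between genes. The aligner, counter and strand setting are not given in the sources used here. Starts in the file were 1 base below those of the annotation for most genes and are printed 1-based.

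Genes were kept by filterByExpr (minimum count 10, minimum total 15), which left 14736 of 15846. A model of 4 group means over all 12 libraries was fitted in edgeR 4.0.16 under R 4.3.3, with TMM scaling and the quasi-likelihood test. Genes with an adjusted p under 0.05 were called. Neighbouring steps were compared by an exact permutation test of log2 ratios with 0.5 CPM added; the 8th planned ratio needed a gene not analysed here. The code was tested on simulated data. The members and lists were chosen with earlier results of these data known. Listed symbols were matched also by Ensembl ID, where the table used an older symbol. All 8 members are named, and of other genes the 10 nearest in profile and up to 4 per list with the lowest p, with Sc5d, Ebp, Stard4 and genes that share ground with a member added after their values were seen. Some genes that this rule names are not reported here.

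Alternatives were RLE scaling, no filter, a filter of 1 CPM in 3 libraries, the replicate number as a block, DESeq2 1.42.0, limma 3.58.1 voom, fitting only the libraries compared, and dropping each library in turn. Nothing says that the livers came from separate cohorts, so p-values measure the spread between these livers. Sequences were read from RefSeq promoters on GRCm38.p6. Figures were drawn with matplotlib 3.10.9.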

Additional observations from a re-analysis of the deposited data

How the results depend on the processing

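Pmvk, Mvd, Idi1, Fdps and Sqle kept their call and direction with the diet in both genotypes in all 19 other fits of each comparison. Leaving out 1 library moved the number of members called from 5 to 7 for the diet in KO and from 5 to 6 for the diet in WT, where the main values were 6. It moved it from 1 to 2 for the genotype on HFCF and from 0 to 2 for the genotype on chow, and left 0 for the interaction. Over all genes, leaving out 1 library gave 157 to 776 calls for the diet in KO (390 with all), 1100 to 2264 for the diet in WT (2013), 2042 to 2834 for the genotype on HFCF (2814), 1152 to 2788 for the genotype on chow (2289) and 11 to 136 for the interaction (117). DESeq2 called 649 genes for the diet in KO and 348 for the interaction, and a fit of the compared groups alone called 603 for the diet in KO, with the cause not tested. The direction turned for some small values, none of them called except the Idi1 to Mvd ratio with 5 CPM added. Limma voom gave Sqle 0.03 in the interaction. Without 1 library, the range was -0.01 to 0.23 for Ggps1 with the diet in KO, -0.12 to 0.06 in WT and -0.14 to 0.03 for its genotype difference on HFCF. It was -0.27 to 0.31 for Mvd with the genotype on HFCF, -0.04 to 0.18 for Fdft1 with the genotype on chow, -0.22 to 0.14 for Mvk, -0.49 to 0.08 for Mvd and -0.29 to 0.29 for Sqle in the interaction, and -0.10 to 0.07 for the Pmvk to Mvk ratio. With 5 CPM added, that ratio differed by -0.09, the Idi1 to Mvd ratio by 0.25 (called) and the Fdps to Idi1 ratio by -1.004 (called), and 5 ratios were called. Leaving out any 1 library left 4 ratios called. Whether the replicate numbers pair the livers is not settled. Correlations of same-numbered deviations ran from -0.148 to 0.167, and no comparison had all 3 above 0.1. Between WT chow and WT HFCF, however, the same-numbered values were 0.0808, 0.167 and 0.108. The differently numbered ones there ran from -0.0918 to -0.0219. With the replicate number as a block edgeR called 6 members for the diet in KO, 6 in WT, 1 for the genotype on HFCF and 0 in the other comparisons, as without it. With diet labels exchanged only within same-numbered pairs (replicate block), 0 ratios were called, since the smallest adjusted p that design gave was 0.0547. Depth limits Idi1 most, with 1 to 6 counts in each HFCF liver.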
